A study of Mus musculus with 2 samples.

Results

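The 10 genes described here encode amino acid transporters of the cell surface, namely Slc7a11, Slc7a5, Slc3a2, Slc7a1, Slc7a3, Slc1a4, Slc1a5, Slc38a1, Slc38a2 and Slc6a9. They were chosen by symbol, and all 10 were found among the 32285 genes of the count matrices. Their transcripts were counted in single cells of mouse gastruloids. A gastruloid is a ball of embryonic stem cells that breaks symmetry and starts to lay down a body axis in the dish. Around 300 cells of the embryonic stem cell line R1, either wild type or Sp5/8dko, were aggregated in serum-free N2B27 medium. Both genotypes received 3 µM CHIR, which activates Wnt signalling by blocking GSK3. CHIR was added on day 2, and collection followed 12 hours later, at day 2.5. Aggregates were pooled before dissociation, and each genotype has 1 library. There is therefore no replicate and no test, and every difference is a difference between these 2 libraries. The number of knockout clones is not given in the sources used here.

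Amino acids enter cells through families of solute carriers with different substrates. Slc7a5 exchanges large neutral amino acids such as leucine, Slc7a11 exports glutamate in exchange for cystine, and both need Slc3a2 as their heavy chain. Slc7a1 and Slc7a3 carry cationic amino acids such as arginine and lysine without a heavy chain. Slc1a4 and Slc1a5 exchange small neutral amino acids with sodium, and Slc1a5 also carries glutamine. Slc38a1 and Slc38a2 take up neutral amino acids such as glutamine with sodium, and Slc6a9 takes up glycine. Several of these genes are known targets of ATF4, a transcription factor whose translation rises when amino acids are short or the endoplasmic reticulum is stressed. Arginine, glutamine and cystine supply are known to matter for the growth of pluripotent cells.

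A cell was a barcode with at least 2500 UMIs, at least 1000 genes and a mitochondrial share of at most 10%. UMIs are random tags that allow each captured molecule to be counted a single time. The library labelled wild type gave 8707 cells with 97157331 UMIs, and the library labelled double knockout gave 10587 cells with 97644169 UMIs. The median cell had 10571 and 8637 UMIs, and 27 cell barcodes occurred in both libraries. Levels are in CPM, a gene's UMIs scaled to the total over all cells. Sp5 was at 109 CPM in the library labelled wild type and 479 CPM in the library labelled double knockout, and Sp8 was at 20.8 and 40.1 CPM. Neither is lower where the label says knockout, and the sources used here do not say whether the counted transcript ends lie outside the deleted parts. The libraries are therefore called by their labels throughout, and each direction below is that of the labels.

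Levels are compared between libraries or cell states of 1 gene and not between genes. Each log2 ratio has the library labelled double knockout as its numerator and the library labelled wild type as its denominator. Intervals are 95% Poisson intervals of the counts and cover counting error only, not variation between cultures. A gene was called at 1.2-fold in either direction if its mean CPM was at least 10. Of the 7607 genes at that level, 2.71% were called higher and 3.98% were called lower in the library labelled double knockout, and their median log2 ratio was -0.02. Among the 10 transporters 8 reached a mean CPM of 10, and Slc7a11 and Slc6a9 did not. Of those 8, 4 were called higher and 0 lower. The members were chosen with earlier results of these data known, so this count is a description and no measure of enrichment. The median log2 ratio of those 8 was 0.24. Summed over the 10 genes, transporter transcripts made up 727 CPM in the library labelled wild type and 856 CPM in the library labelled double knockout, a log2 ratio of 0.24 (0.22 to 0.25).

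The exchanger of large neutral amino acids and its heavy chain were both higher in the library labelled double knockout. Slc7a5 had 9282 UMIs, or 95.5 CPM (93.6 to 97.5), in the library labelled wild type. In the other library it had 11546 UMIs, or 118 CPM (116 to 120.4), a log2 ratio of 0.31 (0.27 to 0.35). Slc3a2, which carries Slc7a5 and Slc7a11 to the cell surface, had 19194 UMIs, or 198 CPM (195 to 200.4), against 24547 UMIs, or 251 CPM (248 to 255). Its log2 ratio was 0.35 (0.32 to 0.38). The counting intervals of the libraries do not overlap for either gene, and both were called.

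Slc7a11, the cystine and glutamate exchanger, was sparse. It had 305 UMIs, or 3.14 CPM (2.80 to 3.51), against 429 UMIs, or 4.39 CPM (3.99 to 4.83). The library labelled double knockout was the higher one, with a log2 ratio of 0.48 (0.27 to 0.70), past 1.2-fold but under the CPM minimum. At a mean CPM minimum of 1, 12406 genes remained and 5.13% of them were higher past 1.2-fold.

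Both carriers of cationic amino acids were higher in the library labelled double knockout, by different amounts. Slc7a1 had 1237 UMIs, or 12.7 CPM (12.0 to 13.5), against 1722 UMIs, or 17.6 CPM (16.8 to 18.5). The log2 ratio of 0.47 (0.36 to 0.58) placed it at rank 42 from the top of the 7607 genes. Slc7a3 had 5042 UMIs, or 51.9 CPM (50.5 to 53.3), against 5731 UMIs, or 58.7 CPM (57.2 to 60.2). Its log2 ratio of 0.18 (0.12 to 0.23) stayed within 1.2-fold.

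The exchangers of small neutral amino acids differed from each other in this comparison. Slc1a4, which carries serine, alanine and cysteine, had 1793 UMIs, or 18.5 CPM (17.6 to 19.3), in the library labelled wild type. Its 2799 UMIs in the library labelled double knockout made 28.7 CPM (27.6 to 29.7). With a log2 ratio of 0.64 (0.55 to 0.72) it ranked 18 from the top of the 7607 genes, and it was the 1 transporter of the 8 past 1.5-fold, a size that 0.289% of those genes passed in that direction. Slc1a5, known for glutamine exchange, had 1903 UMIs, or 19.6 CPM (18.7 to 20.5), against 1963 UMIs, or 20.1 CPM (19.2 to 21.0). Its log2 ratio was 0.04 (-0.05 to 0.13), and -0.08 with equal shares of the ATF4-response ranges described below, so no difference was seen beyond counting error.

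Slc38a1 and Slc38a2, the sodium-coupled carriers of glutamine and other neutral amino acids, stayed within 1.2-fold. Slc38a1 had 10400 UMIs, or 107 CPM (105 to 109), against 10680 UMIs, or 109 CPM (107 to 111), a log2 ratio of 0.03 (-0.01 to 0.07). Slc38a2 had 21207 UMIs, or 218 CPM (215 to 221), against 23776 UMIs, or 243 CPM (240.4 to 247), a log2 ratio of 0.16 (0.13 to 0.18). Only the second pair of intervals is apart. Slc6a9, the glycine transporter, had 312 UMIs, or 3.21 CPM (2.86 to 3.59), against 438 UMIs, or 4.49 CPM (4.08 to 4.93), a log2 ratio of 0.48 (0.27 to 0.70). It lies under the CPM minimum, and its exons overlap those of Gm17114, Ccdc24 and B4galt2 on the opposite strand in GENCODE M21, so part of its UMIs may belong to those genes if strand was not used in counting.

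**Figure D1:**
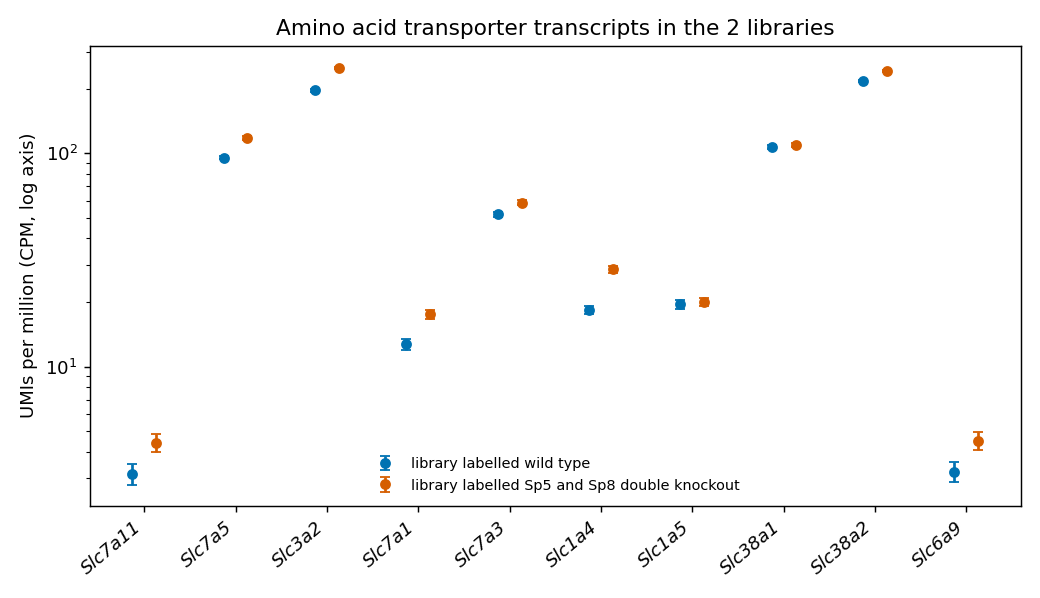
Level of each transporter gene in CPM on a log axis, in the library labelled wild type (blue) and the library labelled Sp5 and Sp8 double knockout (orange), with 95% counting intervals. Slc1a4 shows the widest step, from 18.5 to 28.7 CPM, while Slc1a5 and Slc38a1 have overlapping intervals.

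**Figure D2:**
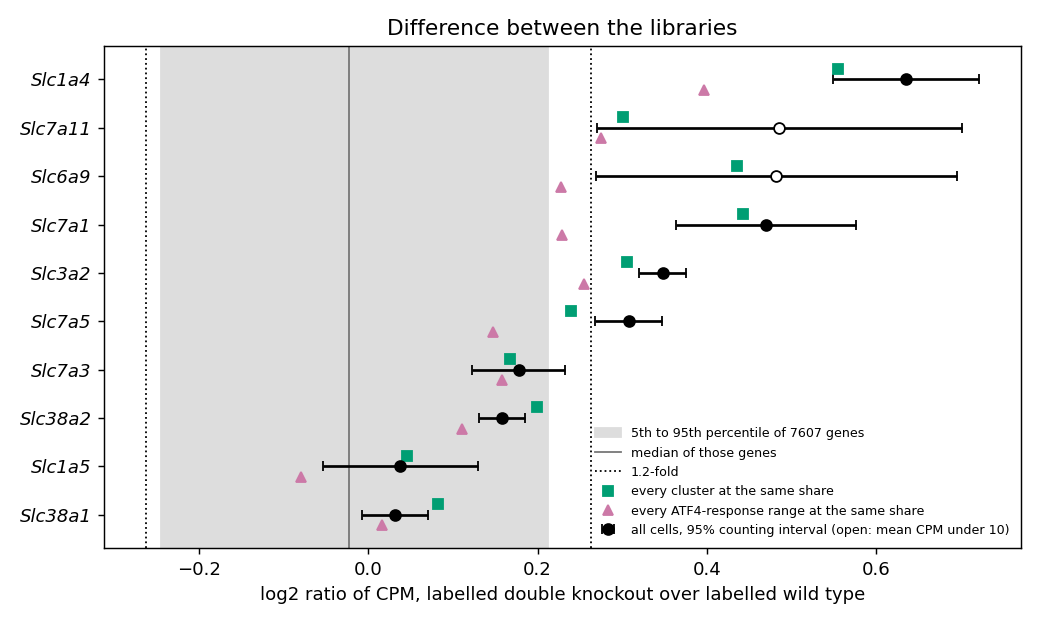
Log2 ratio of CPM between the libraries for each transporter gene, with 95% counting intervals over all cells (circles, open where the mean CPM was under 10), and the same ratio with every cluster (squares) or every ATF4-response range (triangles) at the same share in both libraries. All 10 circles lie above the median of the 7607 genes (-0.02), and with equal ATF4-response ranges 1 of the 8 genes over the CPM minimum, Slc1a4, stays past 1.2-fold.

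Slc7a11 and Slc1a4 are shown by sequence because, of the members with a promoter window at hand, they hold the letters of a known amino acid response element near the start site. That element, TGATGNAA (TTNCATCA on the other strand), is the composite site known to bind ATF4 with C/EBP proteins. RefSeq promoter windows of 300 bases on GRCm38.p6 were found for 6 of the 10 genes, with 9 windows in all, and both strands were searched. The letters occurred in 2 of these 6 genes, Slc7a11 and Slc1a4, each of which has 1 of the 9 windows. Counted by window over all genes, they occurred in 1303 of 32817 (3.97%). Slc7a11 held 2 matches, at positions -66 to -59 and -47 to -40 from the start site, and 0.07% of all windows held 2 or more. The Slc1a4 match spans the start site, from position -4 to 4. Each stretch below runs 5′ to 3′ on the strand of the gene, from 100 bases before the start site to 10 after it, with the matches in capitals. Slc38a2 is added as a gene with no match in its window.
Slc7a11, chr3:50443604-50443713, minus strand: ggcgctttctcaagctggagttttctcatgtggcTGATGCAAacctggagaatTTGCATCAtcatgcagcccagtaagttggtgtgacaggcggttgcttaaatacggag
Slc1a4, chr11:20332704-20332813, minus strand: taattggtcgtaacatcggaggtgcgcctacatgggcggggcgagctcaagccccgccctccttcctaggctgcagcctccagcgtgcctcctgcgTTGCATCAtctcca
Slc38a2, chr15:96699719-96699828, minus strand: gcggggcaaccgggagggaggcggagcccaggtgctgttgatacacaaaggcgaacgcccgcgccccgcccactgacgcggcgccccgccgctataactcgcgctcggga
The absence of these letters from the other windows says nothing about sites elsewhere, and no binding was measured here.

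The position of each gene is given as annotated in GENCODE M21 on GRCm38, and all 10 are protein-coding. Slc7a11 (ENSMUSG00000027737) lies on chromosome 3 from 49892526 to 50443614, Slc7a5 (ENSMUSG00000040010) on chromosome 8 from 121881150 to 121907694, and Slc3a2 (ENSMUSG00000010095) on chromosome 19 from 8706882 to 8723369. Slc7a1 (ENSMUSG00000041313) lies on chromosome 5 from 148327410 to 148399904 and Slc7a3 (ENSMUSG00000031297) on chromosome X from 101079210 to 101086020. Slc1a4 (ENSMUSG00000020142) lies on chromosome 11 from 20302180 to 20332713 and Slc1a5 (ENSMUSG00000001918) on chromosome 7 from 16781340 to 16798274. The neighbours Slc38a1 (ENSMUSG00000023169) and Slc38a2 (ENSMUSG00000022462) lie on chromosome 15, from 96571418 to 96642913 and from 96687392 to 96699730. Slc6a9 (ENSMUSG00000028542) lies on chromosome 4 from 117834506 to 117875198.

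Other genes of amino acid supply give the setting. Among 44 further amino acid transporter genes, 10 reached the CPM minimum, of which 1 was called higher and 0 lower. The called gene was Slc7a7, the light chain of the exchanger that releases cationic amino acids, at 22.3 CPM against 35.1 CPM (log2 ratio 0.66, 0.58 to 0.74). Slc38a10 (0.23), Slc38a4 (-0.15) and Slc6a6 (-0.21), the taurine transporter, stayed within the fold. The median of those 10 genes was 0.04.

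Of the ATF4-response genes other than transporters, 20 reached the CPM minimum, of which 10 were called higher and 2 lower, with a median of 0.22. Chac1, which degrades glutathione, was at 15.0 and 25.5 CPM (0.77, 0.67 to 0.86), Trib3, an inhibitor of the pathway, at 8.82 and 13.7 CPM (0.63, 0.51 to 0.76), and Asns, the asparagine synthetase, at 98.0 and 152 CPM (0.63, 0.59 to 0.67). Mthfd2, of mitochondrial folate metabolism, had a ratio of 0.55. The 2 called lower were Ddit4 (-0.35), an inhibitor of mTORC1, and Cebpb (-0.28), a partner of ATF4. Of 20 cytosolic tRNA synthetase genes, 5 were called higher and 0 lower, with a median of 0.15 and with Sars (0.43), Aars (0.43), Cars (0.36) and Gars (0.36) highest.

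Genes of the oxidative stress factor NRF2, which also acts on Slc7a11, mostly stayed within 1.2-fold. None of the 8 over the CPM minimum was called higher and 1 was called lower, Gclc (-0.28), which makes the first step of glutathione synthesis. The median of that list was -0.11. Of all genes over the CPM minimum, 2.71% were called higher and 3.98% lower, so 0 higher of 8 genes is near the share of all genes. The part of NRF2 in the Slc7a11 level was not tested. Among 18 genes by which mTORC1 senses amino acids, 0 were called higher and 4 lower, namely Lamtor3 (-0.34), Sesn3 (-0.28), Rragd (-0.27) and Rragb (-0.26), around a median of -0.12.

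Cells were grouped by joint clustering without the transporter genes. Clusters 0, 1, 2 and 4 did not hold enough markers of any cell type to be named and are called by number. Cluster 0 (3788 and 3288 cells in the libraries labelled wild type and double knockout) was led by Irx3, Irx5 and Fgfr2, and cluster 1 (2331 and 4649 cells) by Rhox5 and Tdgf1. Cluster 2 (1462 and 516 cells) was led by Nfib and Cdx2, and 92.1% and 89.0% of its cells had a low share of chromosome 11 UMIs. Cluster 3 (358 and 1343 cells) was primitive-streak-like, with Foxa2, Mixl1, Gsc, Eomes and T among its leading genes. Cluster 4 (327 and 354 cells) had a median of 3674 and 3224 UMIs and a mitochondrial share of 0.23% in each library, and cluster 5 (310 and 271 cells) was neural-like, with Sox1 and Hes5 in its lead.

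Among clusters 0 to 3, the carrier pair Slc3a2 and Slc7a5 differed by less than 1.5-fold, as did Slc7a1, Slc1a5, Slc38a1 and Slc38a2. Slc7a3, Slc7a11 and Slc6a9 spread further in both libraries, and Slc1a4 did so in the library labelled wild type only. Slc3a2 lay between 172 and 226 CPM there in the library labelled wild type and between 216 and 291 CPM in the library labelled double knockout. Slc7a5 lay between 84.8 and 112 CPM and between 98.3 and 135 CPM. In both libraries cluster 0 was the lowest of these clusters for each of these 2 genes. Slc7a3 lay between 44.6 and 71.3 CPM and between 49.3 and 85.7 CPM. The sparse genes Slc7a11 (1.76 to 4.43 and 2.39 to 5.61 CPM) and Slc6a9 (2.49 to 5.09 and 3.46 to 6.92 CPM) spanned a wider fold. At 1.5-fold against the other cells, cluster 3 held the 1 call in clusters 0 to 3, Slc1a4 in the library labelled wild type, where 0.933% of genes were called higher.

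Slc1a4 was at 27.2 CPM in the primitive-streak-like cells labelled wild type and at 18.0 CPM in the other cells (log2 difference 0.59, 0.32 to 0.86). The corresponding levels were 33.7 and 27.9 CPM in the library labelled double knockout (0.27, 0.12 to 0.42). Cluster 3 had the highest Slc1a4 level of the 6 clusters in each library. That rank did not hold at a clustering resolution of 1.0. There the primitive-streak-like cluster was at 27.2 and 33.5 CPM, and an unnamed cluster led by Trh, Chac1 and Vldlr was at 28.4 and 33.7 CPM.

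The arginine and lysine carrier Slc7a3 was low in the neural-like cells. It was at 12.0 CPM in cluster 5 and 53.1 CPM in the other cells labelled wild type, a log2 difference of -2.14 (-2.67 to -1.66). The same comparison gave 15.7 and 59.6 CPM, or -1.93 (-2.47 to -1.44), in the library labelled double knockout. Empty droplets, barcodes with 10 to 100 UMIs that hold free RNA, had 52.8 and 53.9 CPM of Slc7a3, above the neural-like level. Cluster 2 had the highest Slc7a3 level in both libraries, 71.3 and 85.7 CPM.

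Slc7a1, the other cationic carrier, was not lower in the neural-like cells, at 13.4 and 19.0 CPM against 12.7 and 17.6 CPM in the other cells. Slc38a1 was higher there than in the other cells by 0.29 and 0.26 on the log2 scale, and Slc38a2, at 263 and 278 CPM, by 0.28 and 0.19. Slc7a5 was lower by 0.46 and 0.37 and Slc3a2 by 0.22 and 0.30. Of the 8 genes over the CPM minimum, 1 was called lower in the library labelled wild type (Slc7a3) and 2 in the library labelled double knockout (Slc7a3 and Slc1a4), where 4.79% and 6.01% of all genes were.

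All 8 tested transporters were called lower in cluster 4 in each library, where 45.4% and 45.8% of all genes were also called lower. Their median log2 difference from the other cells was -2.40 and -2.48, with genes at 0 UMIs set to 3. Slc38a2 stood at 20.1 and 25.8 CPM there and Slc7a5 at 17.8 and 21.7 CPM. The smallest differences among the 8 were those of Slc3a2 (-1.49 and -0.92, at 71.1 and 134 CPM) and Slc38a1 (-1.45 and -1.78). The low mitochondrial share and UMI total of these cells moved with these levels, and their part in the result was not tested.

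Groups of fewer than 100 cells gave wider intervals. The labels give the cell type as ESC, and 9 of the 10 naive stem cell markers, Zfp42 and Esrrb among them, were 1.5-fold higher in cluster 6, with fewer in other clusters. The naive-like cells of cluster 6 (75 and 69 cells) had Slc7a1 at 31.3 CPM (19.9 to 47.0) and 62.5 CPM (44.0 to 86.1), and Slc38a2 at 398 and 412 CPM. The extraembryonic-endoderm-like cells of cluster 8 (17 and 16 cells) had Slc38a1 at 411 CPM (326 to 511) and 307 CPM (228 to 405). Slc7a3 had 0 UMIs and 1 UMI there. Cluster 7 (39 and 81 cells), led by Aqp3, Ddit3, Pmaip1 and Nupr1, is left unnamed although Esrrb, Klf5 and Tbx3 meet the naming rule for naive cells there, since stress genes lead it. Its Slc7a5 level was 131 and 126 CPM.

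**Figure D3:**
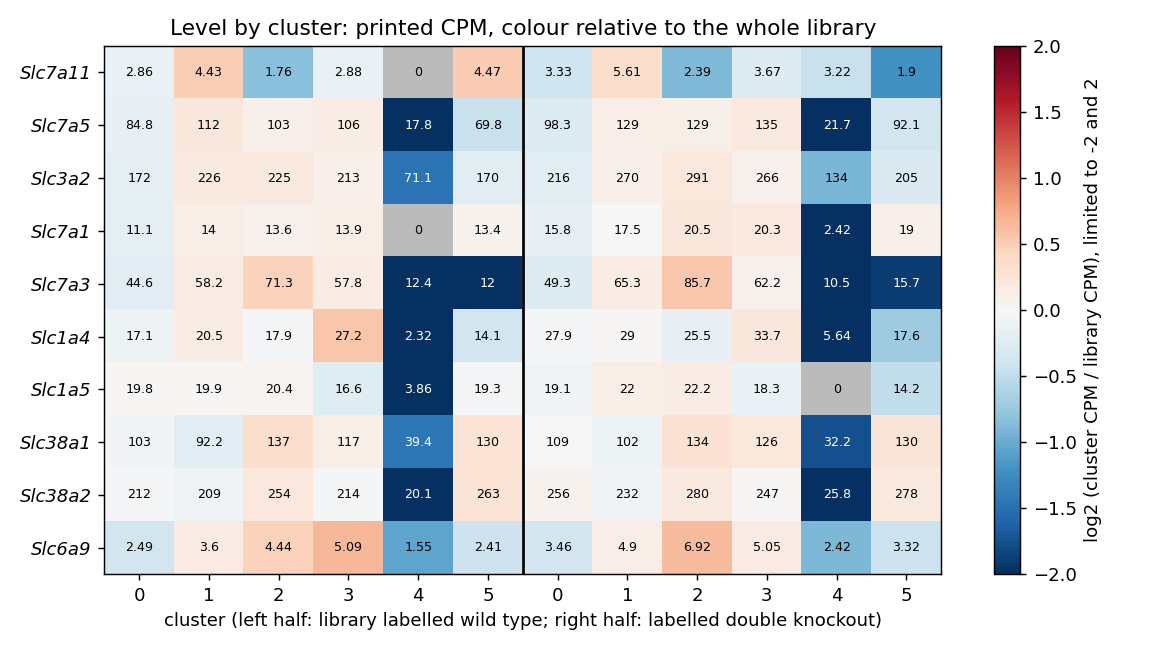
Level of each transporter gene (rows) in clusters 0 to 5 (columns) of the library labelled wild type (left) and the library labelled double knockout (right), with CPM printed and colour for the log2 ratio to the whole library, grey where no UMI was counted. Cluster 4 is low for nearly every gene, and Slc7a3 is low in the neural-like cluster 5, at 12.0 and 15.7 CPM.

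Within clusters the difference between the libraries mostly kept its direction. In clusters 0 to 3, 37 of the 40 ratios were above 0 and 3 below. All 40 come from the same 2 libraries, and the share of all genes above 0 was not counted. Several of these intervals included 0. Over the clusters with a value, Slc1a5 was higher in 3 of 5 with 0 intervals above 0, and Slc7a11 in 4 of 5 with 1. Slc3a2 was higher in the library labelled double knockout in 6 of 6 clusters, with every interval above 0. Slc7a5 was higher in 6 of 6, with 5 intervals above 0, and Slc1a4 in 6 of 6, with 4 intervals above 0. When each cluster was given equal weight in the libraries, the log2 ratios were 0.56 for Slc1a4, 0.44 for Slc7a1, 0.31 for Slc3a2 and 0.24 for Slc7a5. Slc7a5 then lay within 1.2-fold, so 3 of 8 genes were called higher, beside 1.89% of all genes.

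Slc1a4 lies on chromosome 11, and cells with a low share of UMIs on that chromosome made up 17.7% of the library labelled wild type and 5.82% of the library labelled double knockout. In cells over the limit of 0.8 times the median share, its log2 ratio was 0.64 (0.55 to 0.73), about that of all cells. In cells at or under the limit it was 0.37 (0.04 to 0.69).

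The ATF4-response score of a cell was the number of UMIs on 30 ATF4-response genes, none of them a transporter, after thinning each cell to 4000 UMIs. As a plain sum, it weighs abundant genes such as Mthfd2 (197 and 288 CPM) and Ddit4 (160 and 125 CPM) most. Sparse genes such as Trib3 (8.82 and 13.7 CPM) add little to it. Thinning kept 8449 and 10229 cells. The library labelled double knockout had the higher median score, 8 UMIs, and the library labelled wild type had 6. Cells were put in 5 ranges, with upper limits of 5, 7, 8 and 11 UMIs for the lower ones. These are ranges of a continuous score and not cell types, and 405 and 797 cells lay at the limit of 11. The highest range held 771 cells (9.13%) of the library labelled wild type and 2125 cells (20.8%) of the library labelled double knockout. The lowest range held 3208 cells (38.0%) and 2119 cells (20.7%).

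Most transporters were higher in the cells with more ATF4-response transcripts, in both libraries. Between the highest and the lowest range, 5 of the 8 tested genes were higher past 1.5-fold in the library labelled wild type, as were 1.08% of all genes. In the library labelled double knockout 4 of 8 were, against 0.67% of all genes. None was lower past 1.5-fold (0.96% and 0.723% of all genes). The median log2 difference of those 8 genes was 0.60 and 0.58, beside -0.01 and -0.01 for all genes. The score and the transporters were read from the same cells of the same libraries, and the ranges carry no replicate.

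Slc7a1 had the largest difference of the tested genes. Within the library labelled wild type it was at 7.56 CPM in the lowest range and 29.2 CPM in the highest, a log2 difference of 1.95 (1.52 to 2.38). The library labelled double knockout had 10.4 and 22.9 CPM (1.14, 0.77 to 1.52). Slc1a4 was at 12.4 and 27.6 CPM (1.15, 0.76 to 1.54) and at 19.2 and 31.5 CPM (0.71, 0.43 to 1.00). Both libraries thus showed higher levels of these carriers in the highest range, with intervals above 0.

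Slc7a5 was at 78.2 CPM in the lowest range and 137 CPM in the highest of the library labelled wild type (0.81, 0.65 to 0.98). The library labelled double knockout had 90.0 and 149 CPM (0.73, 0.59 to 0.86). The level of Slc7a5 was higher in each range than in the range below it in both libraries. Its heavy chain Slc3a2 was at 177 and 266 CPM (0.59, 0.47 to 0.70) and at 209 and 302 CPM (0.53, 0.44 to 0.62).

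Slc1a5 differed by 0.61 (0.20 to 1.00) and 0.61 (0.29 to 0.94) between the highest and the lowest range, although its interval between the libraries included 0. Slc7a3 differed by 0.51 and 0.55. The sparse genes Slc6a9 (1.49 and 0.91) and Slc7a11 (1.06 and 0.85) were also higher in the highest range, and the interval of Slc7a11 in the library labelled wild type reached from -0.03 to 2.07.

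Slc38a2 and Slc38a1 stood apart from the other members. Slc38a2 was at 226 CPM in the lowest range and 229 CPM in the highest of the library labelled wild type (log2 difference 0.02, -0.10 to 0.14). The other library had 238 and 239.9 CPM (0.01, -0.08 to 0.10). Slc38a1 differed by 0.06 (-0.12 to 0.23) and 0.14 (0.00 to 0.27). Intervals this narrow lie well inside 1.5-fold (0.58 on the log2 scale).

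**Figure D4:**
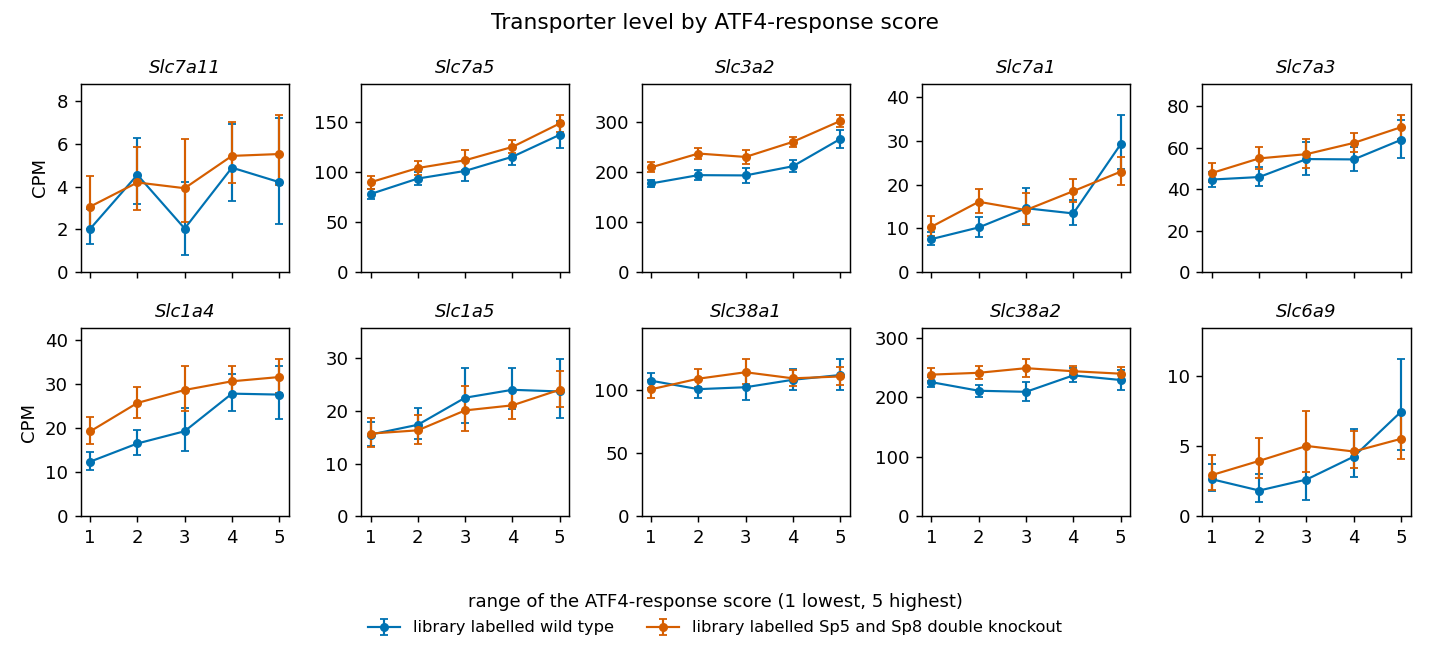
CPM of each transporter gene in 5 ranges of the ATF4-response score, from 1 (lowest) to 5 (highest), in the library labelled wild type (blue) and the library labelled double knockout (orange), with 95% counting intervals. Slc7a5, Slc3a2 and Slc1a4 climb with the score in both libraries, whereas Slc38a1 and Slc38a2 are level.

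The same comparison within clusters 0 and 1, which hold most cells, gave the values inside a cell state. Slc7a1 differed by 1.61 and 2.03 in clusters 0 and 1 of the library labelled wild type and by 0.79 and 1.304 in the library labelled double knockout, with all 4 intervals above 0. Slc7a5 differed by 0.63 and 0.81, and by 0.53 and 0.69, again with intervals above 0. Slc3a2 was less uniform, with 0.39 and 0.53 in the library labelled wild type, 0.63 in cluster 1 of the library labelled double knockout and 0.08 (-0.11 to 0.27) in its cluster 0. All 4 intervals of Slc1a5 included 0. So did those of Slc7a3 in cluster 0 labelled wild type (0.16, -0.36 to 0.64) and Slc1a4 in cluster 0 labelled double knockout (0.49, -0.06 to 1.04). The other intervals of Slc7a3 and Slc1a4 lay above 0.

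Since the libraries differ in their shares of cells per score range, their ratio was also taken at equal shares. Of the 4 transporters called higher over all cells, Slc1a4 alone was then still past 1.2-fold, at 0.40. The other 3 had log2 ratios of 0.26 (Slc3a2), 0.23 (Slc7a1) and 0.15 (Slc7a5), while 3.02% of all genes were called higher. The score ranges hold thinned cells, so the like values are those of all thinned cells. Those were 0.57 (Slc1a4), 0.34 (Slc3a2), 0.48 (Slc7a1) and 0.28 (Slc7a5). Slc3a2 was higher in the library labelled double knockout within 5 of 5 ranges, by 0.18 to 0.30, with every interval above 0. Slc1a4 was higher in 5 of 5 ranges, by 0.14 to 0.64, with 3 intervals above 0. Slc7a1 was higher in 3 of 5 ranges, and in the highest range it was at 29.2 and 22.9 CPM, a ratio of -0.35 (-0.71 to 0.03).

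A single transcript gave a different picture from the score. Ddit3, a stress-induced partner of the pathway, was at 5.78 and 6.37 CPM, and 185 cells (2.19%) and 232 cells (2.27%) had a Ddit3 UMI after thinning. Compared with cells without one, 0 of 8 transporters were higher past 1.5-fold in either library, where 4.73% and 3.02% of all genes were. Slc3a2 differed by 0.14 (-0.10 to 0.36) and 0.25 (0.07 to 0.42). Slc7a5 differed by -0.21 (-0.60 to 0.15) and 0.00 (-0.28 to 0.28), below its difference between score ranges.

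Cells were also called S or G2/M from cell cycle genes, which gave 4043 and 4238 such cells among those labelled wild type and 4759 and 5240 among those labelled double knockout. Slc1a4 was higher in G2/M cells by 0.27 (0.04 to 0.51) and 0.47 (0.30 to 0.65), and Slc1a5 was lower by 0.40 (0.17 to 0.63) and 0.46 (0.25 to 0.67). These related exchangers, 1 called higher and 1 called lower of 8 tested genes, thus lay on opposite sides in both libraries. At 1.2-fold, 6.40% and 5.65% of all genes were called higher in G2/M, and 3.39% and 3.46% lower. Slc38a2 differed by 0.13 and 0.13, and the other 5 tested genes lay between -0.09 and 0.03.

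**Figure D5:**
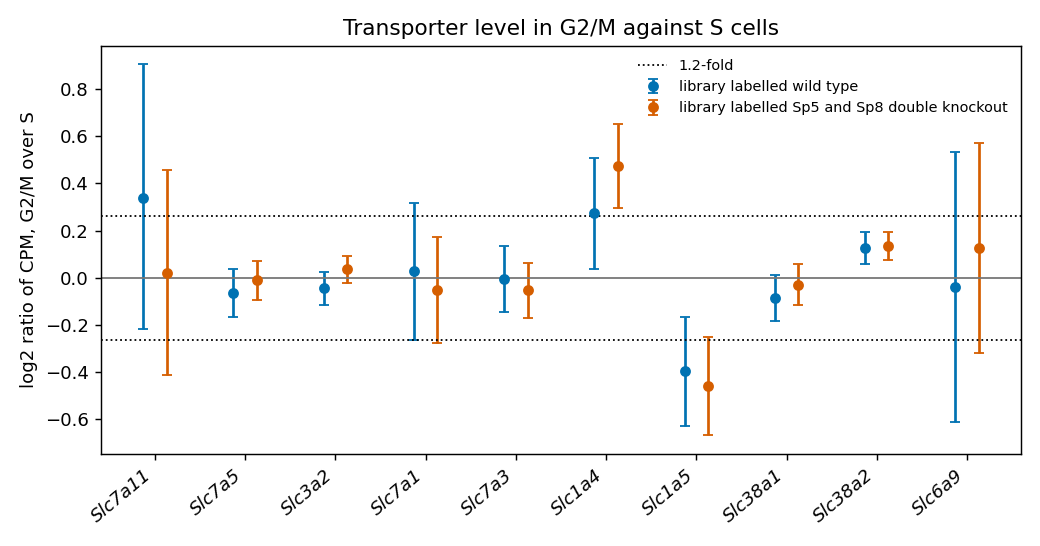
Log2 ratio of CPM in G2/M over S cells for each transporter gene, in the library labelled wild type (blue) and the library labelled double knockout (orange), with 95% counting intervals and dotted lines at 1.2-fold. Slc1a4 lies above 0 (0.27 and 0.47) and Slc1a5 below (-0.40 and -0.46) in both libraries.

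Shares of cells with a UMI followed the same order between libraries as the CPM after thinning, but not for every gene without it. After thinning to 4000 UMIs, which left out 258 and 358 cells, Slc3a2 was found in 52.6% (51.6 to 53.7) of cells labelled wild type and 61.0% (60.1 to 62.0) of cells labelled double knockout. The shares for Slc7a5 were 30.9% (29.95 to 31.9) and 36.6% (35.6 to 37.5), and for Slc1a4 6.92% (6.39 to 7.49) and 10.2% (9.58 to 10.8), all by exact Clopper-Pearson intervals. Without thinning, the shares were 81.6% and 83.6% for Slc3a2, 59.0% and 61.0% for Slc7a5, and 17.4% and 21.9% for Slc1a4, in cells of unequal depth. Slc38a1, at 33.5% and 34.6% after thinning, was at 64.7% and 59.4% without it. Unthinned shares of Slc1a5 (19.1% and 16.5%), Slc38a2 (83.7% and 82.6%) and Slc7a3 (38.8% and 38.3%) were also lower in the library labelled double knockout. No cell type in these libraries is known to lack these genes, so free RNA was read from empty droplets instead.

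In empty droplets Slc3a2 was at 129 CPM (118 to 141) and 179 CPM (163 to 196), below its level in cells but with a similar log2 ratio between libraries, 0.47 (0.28 to 0.65). Slc1a4 was at 10.1 CPM (7.22 to 13.8) and 21.2 CPM (16.0 to 27.7), a ratio of 1.07 (0.46 to 1.70). The part of free RNA in the cells' values was not tested. Slc7a3 was as abundant in empty droplets as in cells of the library labelled wild type (52.8 and 51.9 CPM).

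The spread of these genes over cells was read from thinned counts. The variance over the mean lay between 0.99 and 1.21 for the 10 genes in both libraries, with the highest value for Slc7a11 in the library labelled wild type. Slc7a11 was at 1.06 in the other library. For all genes with a mean of at least 0.04 UMIs per thinned cell, the median was 1.02 in both libraries. The 90th percentile was 1.08 and 1.08 and the 95th percentile 1.15 and 1.14. Slc7a11 (means of 0.013 and 0.018) and Slc6a9 (0.013 and 0.017) lie under that minimum, so these percentiles do not cover them. Slc3a2 (1.10 and 1.11) and Slc38a2 (1.12 and 1.12) lay between those percentiles in both libraries. Across single cells the rank correlation of a transporter with the score was weak, between 0.00 (Slc38a2) and 0.11 (Slc7a5 and Slc3a2).

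The members were also compared with each other over cluster-by-library sums of log2 CPM. Over all 12 points the 45 pairs had a Pearson r of 0.32 to 0.97. Values are given without the shallow cluster 4, a choice made after seeing the data, for 10 points that share libraries and depth. Slc7a5 and its heavy chain Slc3a2 had an r of 0.95, Slc3a2 and Slc6a9 0.91, and Slc38a1 and Slc38a2, which lie side by side on chromosome 15, 0.79. Slc7a11 was not alike to its heavy chain Slc3a2 (r = 0.07), and Slc7a5 not to Slc38a2 (-0.05). The Slc7a11 sums were small, down to 4 UMIs in cluster 5 of the library labelled double knockout, so its r carries much counting error.

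Among the 7607 genes over the CPM minimum, those most like Slc7a5 were the leucine tRNA synthetase gene Lars (r = 0.99), the serine synthesis gene Psat1 (0.98) and Chac1 (0.98). Slc7a1 was most like Mrto4 (0.94), Asns (0.93) and Coa7 (0.92), and Slc3a2 most like Mrps18b (0.98), the alanine tRNA synthetase gene Aars (0.96) and Exosc4 (0.96). The genes most like Slc7a3 were Rab25, Tmem238 and Crb3 (0.99 each), of which Rab25 and Crb3 act in epithelial polarity. Slc7a3 was lowest in the neural-like cluster 5 among these points, at 12.0 and 15.7 CPM, which weighs on its r. Slc38a2 was most like Brd7 (0.98), Tecr (0.95) and Imp3 (0.95), and Slc1a4 most like Urod (0.97), Eif6 (0.96) and Slc25a39 (0.94). With cluster 4 kept, other genes led for each of these members. They were Kdm2b, Gpd2 and Polg for Slc7a5, Il17rd, Map1s and Nectin1 for Slc7a1, and Gorasp2, Fgd1 and Wdr43 for Slc3a2. For Slc7a3 they were Zic5, Naf1 and Itga1.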

How the data were processed

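Raw UMI counts, deposited by the authors for every gene in every barcode, came from 10x single-cell 3′ libraries (kit version 3.1), per the labels' protocols. The labels name Cell Ranger 8.0.1, while the submitters' processing notes list STARsolo, STAR 2.7.9a, Seurat 5.1.0 and mm10; which tool wrote the counts, and its strand setting, are not given in the sources used here. The matrices list 6794880 barcodes, so cells were called here by the limits given above, which removed 1 and 0 barcodes for few genes and 64 and 26 for mitochondrial share. Total counts over all barcodes were 104083993 and 103187025. Doublets were not removed, except in an alternative that took out the 606 and 897 highest Scrublet-type scores.

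Counts were summed per library, cluster or range. With 1 library per genotype no test was run. Sums have exact Poisson 95% intervals, ratios exact conditional ones, and shares Clopper-Pearson ones. Calls over all genes used a pseudocount of 0.5 UMIs. A sum of 0 UMIs allows up to 3 UMIs. Cells were clustered jointly with scanpy 1.11.5 and leidenalg 0.10.2 (2000 variable genes, 30 components, 15 neighbours, resolution 0.5), with transporters, the targeted genes and cell cycle, ribosomal, mitochondrial and Y-linked genes left out. A cluster was named if at least 3 markers of a type were 1.5-fold higher and 1 was among its 10 leading genes. The ratio script was tested on simulated data. Within each gene list up to 4 genes with the largest absolute ratio are named, and up to 3 most alike genes per member. The members and lists were chosen with earlier results of these data known. Alternatives covered doublets, mitochondrial and UMI limits, scaling, weighting, thinning, chromosome shares, clusters, score ranges and the score itself.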

Additional observations from a re-analysis of the deposited data

How the results depend on the processing

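No paired analysis was possible because each genotype has 1 library and the labels give no replicate numbers. The count of transporters called higher between the libraries was 4 of 8, with 0 lower, also without doublet-scored cells, with a mitochondrial limit of 5%, with at least 5000 UMIs, with scaling to the median gene, with every cell at the same weight, with thinned cells and without cells low on chromosomes 6 and 11, beside 2.69% to 3.46% of all genes higher. Without cluster 4, chosen after seeing the data, it was 4 and 0 as well. It was 2 in cluster 1 alone (2.73% of all genes), 5 in clusters 2 and 5 alone (9.24% and 12.7%) and 6 of 10 at a minimum CPM of 1 (5.13%). It was 2, 3, 1, 2 and 0 in score ranges 1 to 5 alone (5.49%, 5.98%, 10.4%, 6.06% and 9.91%), 1 at a fold of 1.5 (0.289%), and 1 with every score range at the same share (3.02%), a setting added after seeing the data. The count called lower was 1 in cluster 4, in cluster 5 and in score range 5, each taken alone, where 27.6%, 18.3% and 13.9% of all genes were called lower. The median log2 ratio of all 10 members was 0.33. It was 0.25 in cluster 0 and 0.23 in cluster 1 alone. It was 0.18, 0.23, 0.20, 0.13 and 0.090 in score ranges 1 to 5 alone, and 0.19 with equal score ranges. The score ranges hold thinned cells, and over all thinned cells the median was 0.31. The cause of these shifts was not tested.

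Of 209 single ratios under these alternatives, 17 changed sign, 16 of them in a single cluster or score range. These were 6 of Slc1a5 and 4 of Slc38a1, whose main intervals include 0, and 1 of Slc7a3 (-0.24 in cluster 4), besides 6 others. Slc6a9 was at -0.011 in cluster 3 and -0.43 in score range 5, Slc7a11 at -1.24 in cluster 5 (13 and 4 UMIs) and -0.12 in score range 2, and Slc7a1 at -0.041 in score range 3 and -0.35 in score range 5. Cluster 4 alone gave no value for Slc7a11, Slc7a1 and Slc1a5, which had 0 UMIs in 1 library. With cells split by a Ddit3 UMI in place of the score, 0 of 8 genes in each library were higher past 1.5-fold, against 5 and 4. In the library labelled wild type Slc7a11 (-1.34), Slc7a5 (-0.21), Slc7a3 (-0.11), Slc7a1 (-0.15) and Slc1a4 (-0.064) then changed sign. In the library labelled double knockout Slc7a11 (-0.50), Slc7a1 (-0.054) and Slc6a9 (-1.04) did. The counting intervals of all these differences included 0, so their sign is not settled. The widest was that of Slc7a11 in the library labelled wild type, from -6.66 to 1.17. Without Ddit3, Trib3 and Chac1 in the score, 4 genes in each library stayed past 1.5-fold. These 3 genes were at 5.78, 8.82 and 15.0 CPM in the library labelled wild type and at 6.37, 13.7 and 25.5 CPM in the other. Mthfd2 alone was at 197 and 288 CPM, so leaving them out could change the score only little. The log2 span from the lowest to the highest cluster moved by less than 0.25 in 38 of 40 comparisons with another resolution or gene set, and all 20 shares of cells differed without thinning. Depth limits Slc7a11 and Slc6a9 most, with at most 438 UMIs a library.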
